A study of Homo sapiens with 3 samples.

Results

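Both siRNAs against the TARBP2 transcript were set against each other in 293T cells, array against array, over every named gene detected on both. The study holds 3 Illumina BeadChip arrays of 293T, a line derived from human embryonic kidney: 1 array after siTARBP2-1 (siRNA 1), 1 after siTARBP2-2 (siRNA 2) and 1 after siControl. All 3 cultures were transfected with a lipid reagent in medium holding 10% serum, and total RNA was taken 48 h later. The text on the study's design calls the cells metastatic and the control mock-transfected, whereas the sample labels name a control siRNA. A gene entered if the brightest of its probes had a detection p-value under 0.01 on both siRNA arrays, which held for 10932 of 20046 named genes (54.5%). Of these, 10798 were also detected on the control array and 134 were not. Another 438 genes were detected on the siRNA 1 array alone and 225 on the siRNA 2 array alone, and were left out.

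The TARBP2 protein binds double-stranded RNA, works beside Dicer and helps to load small RNAs onto Argonaute. Each of the 2 siRNAs targets the transcript through its own sequence. As textbook background, an siRNA can also lower other transcripts that match its seed, so 2 siRNAs of 1 target need not leave the same transcriptome behind. The sequences of these siRNAs were not analysed here, so seed matches were not examined.

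There was 1 array a side and no replicate, so the differences carry no error and no test, and no p-value is given. A level is the log2 of the background-corrected, quantile-normalized intensity of a probe, and a difference is siRNA 1 minus siRNA 2 on that scale. A gene is called higher or lower where it differed by over 1.5-fold. In bulk RNA of a culture, a smaller share of cells that express a gene and less of its RNA per cell cannot be told apart. The raw signals were unequal: the mean was 680.4 with siRNA 1 and 514.3 with siRNA 2, against 528.5 with control. Of 47323 probes, 19155 were detected with siRNA 1 and 18449 with siRNA 2, against 18968 with control. Of 6 genes taken as markers of 293T, 5 were detected with siRNA 1, 5 with siRNA 2 and 4 with control. They were VIM, INA, NEFM, NEFL and LHX1 on the siRNA arrays. PAX2 was not detected. Of 6 markers of other cell types, 1 was detected with siRNA 1, 1 with siRNA 2 and 2 with control. Of 6 markers of mesenchymal carcinoma lines, 3 were detected with siRNA 1, 3 with siRNA 2 and 4 with control. These were not the same genes: ANXA1 was detected with siRNA 1 and not siRNA 2, S100A4 with siRNA 2 and not siRNA 1. Any part of these markers in the differences below was not tested.

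The target itself was nearly level between the siRNAs. TARBP2 stood at 6.27 with siRNA 1 and 6.09 with siRNA 2, against 8.38 with control. Both siRNA arrays were low and lay close to each other, far below the control array. The difference was 0.18, and the gene's other detected probe gave 0.22. Of all detected genes, 43.9% had a smaller absolute difference than TARBP2. With array medians set equal in place of quantile normalization the difference was 0.48, but that scaling also put the median of all genes at 0.35, against -0.04 as reported. Of the partners of TARBP2, the endonuclease DICER1 was at 10.71 with siRNA 1 and 10.47 with siRNA 2, against 10.64 with control. PRKRA, its paralog and another Dicer partner, was at 10.63 with siRNA 1 and 10.79 with siRNA 2, against 10.79 with control. AGO2, the Argonaute that cleaves the target of an siRNA, differed more: 9.01 with siRNA 1 and 9.79 with siRNA 2, against 9.53 with control. Its siRNA 1 array was the lowest of the 3, and the difference was -0.78, on 1 detected probe. Over the 23 detected genes of the RNA interference machinery the median difference was 0.00, with 0 genes higher and 2 lower, AGO2 and the helicase DDX17 (-0.59).

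Across the detected genes, 505 were higher with siRNA 1 than with siRNA 2 by over 1.5-fold (4.62%) and 491 were lower (4.49%). By over 2-fold, 85 were higher (0.778%) and 53 lower (0.485%). The other 9936 genes (90.9%) lay within 1.5-fold. Counts of higher and lower members of the gene families below stand against the 4.62% and 4.49% of all genes. The differences had a median of -0.04 and an SD over genes of 0.35, and they ran from -1.79 to 1.90. The share of higher genes among those past 1.5-fold was 50.7%. It depended on the scaling: it was 97.5% with equal array medians, where the shift of all genes named above carried most calls to the higher side, and 68.0% over genes brighter than the median gene. Directions of gene families below are therefore read against the median of all genes, and a family whose median crossed it under at least 1 other setting has no settled direction. Of the families given below these were the RNA interference machinery, collagens, small nucleolar and Cajal body RNAs, microRNA genes, G2/M genes, immediate early genes, HOX genes, kinesins, tubulins, oxidative phosphorylation, mitochondrial ribosomal proteins, core spliceosome subunits and the integrated stress response. At the edge of the detection rule, 36 genes just inside it had a median absolute difference of 0.24, and 62 genes just outside it one of 0.25.

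**Figure D1:**
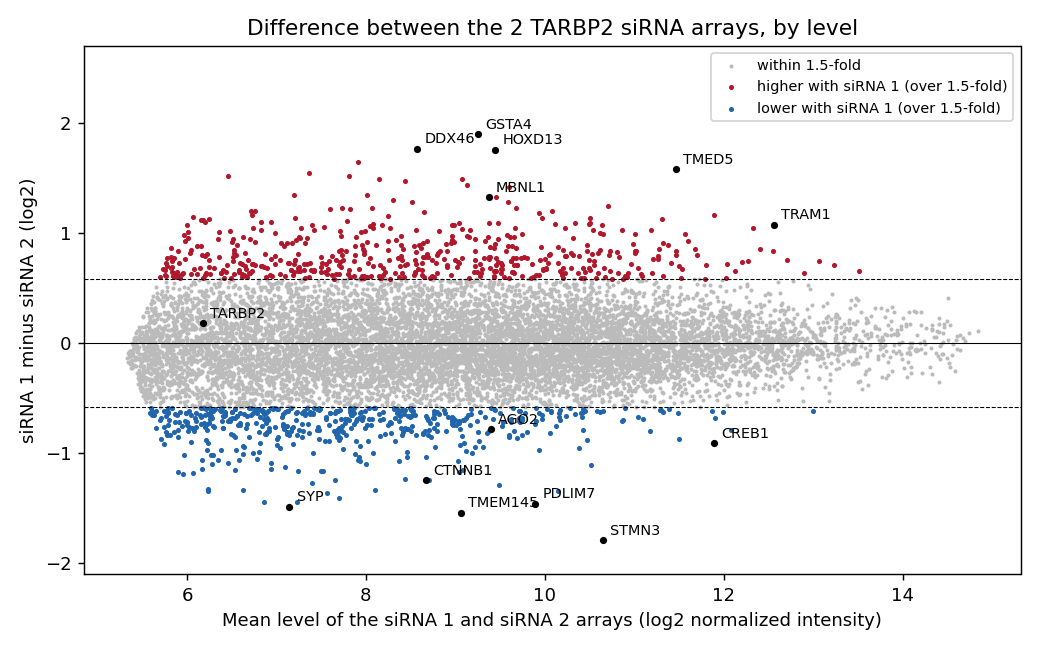
Each point is a gene, with the mean log2 level of the siRNA 1 and siRNA 2 arrays on the x axis and siRNA 1 minus siRNA 2 (log2) on the y axis. Red points are the 505 genes higher with siRNA 1 by over 1.5-fold, blue points the 491 lower ones, dashed lines mark 1.5-fold and black points carry gene names. TARBP2, at 0.18, lies inside the bulk of genes.

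The control array stood nearer to siRNA 1 than to siRNA 2 for most of the genes that differed. Each siRNA comparison with control shares the control array, so their values are given side by side. Against control, siRNA 1 was higher by over 1.5-fold for 105 genes (0.96%) and lower for 103 (0.942%), and siRNA 2 was higher for 550 (5.03%) and lower for 464 (4.24%). The SD of the difference from control over genes was 0.23 for siRNA 1 and 0.34 for siRNA 2. Of the 505 genes higher with siRNA 1 than with siRNA 2, the control level was nearer to siRNA 1 for 433 (85.7%). It lay between both siRNA arrays for 378 of them, above both for 121 and below both for 6. Of the 491 lower genes it was nearer to siRNA 1 for 384 (78.2%), between both for 337, above both for 13 and below both for 141. Over all detected genes the control was nearer to siRNA 1 for 61.8%. The median difference from control was 0.16 for siRNA 1 and -0.64 for siRNA 2 over the higher genes, and -0.16 for siRNA 1 and 0.59 for siRNA 2 over the lower genes. The genes in question were chosen on the siRNA arrays, so these values describe the chosen genes.

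The spread of the siRNA 1 array from control was smaller than that of the siRNA 2 array at every brightness. The genes were split into 5 bins of equal size by mean level. In the dimmest bin the SD over genes was 0.38 for siRNA 1 minus siRNA 2, 0.30 for siRNA 1 minus control and 0.40 for siRNA 2 minus control. In the brightest bin the same SDs were 0.26, 0.16 and 0.24. Genes lower with siRNA 1 were mostly dim, 171 in the dimmest bin and 17 in the brightest, whereas the higher genes numbered 108 and 60 in these bins.

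**Figure D2:**
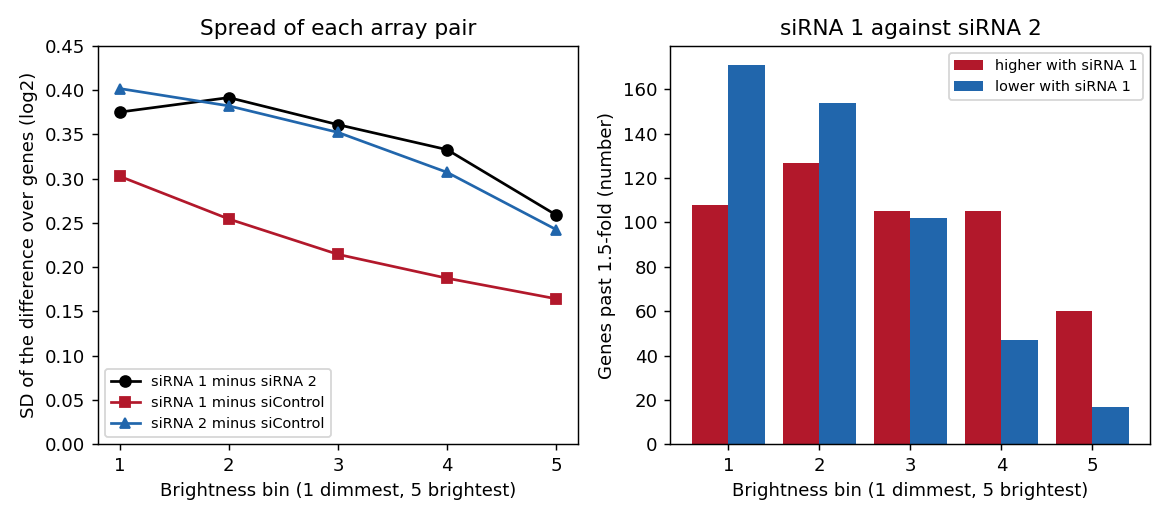
The left panel gives the SD over genes of the log2 difference of each pair of arrays, in 5 brightness bins from the dimmest (1) to the brightest (5). The right panel gives the number of genes past 1.5-fold between siRNA 1 and siRNA 2 in each bin, 108 higher and 171 lower in the dimmest and 60 higher and 17 lower in the brightest.

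A second probe of the same gene gave a partial check within the same arrays. Of the detected genes, 2953 had at least 2 detected probes. Among those, 166 were called higher at the brightest probe, and in 151 of them (91.0%) every probe had that sign, in 87 (52.4%) every probe passed 1.5-fold. Of 91 called lower, 74 (81.3%) had the same sign at every probe and 26 (28.6%) passed 1.5-fold at every probe. Genes within 1.5-fold shared a sign at every probe in 62.1% of 2696 cases. Over 3596 other probes, Pearson's r with the brightest probe was 0.55 across probes, which share the arrays and are not replicates. Probes of 1 gene share its RNA and labelling, so a shared sign says nothing of another culture.

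Among the 12 genes with the largest positive difference, the siRNA 2 array was the low one in each. GSTA4, a glutathione transferase that clears lipid peroxidation products, was at 10.20 with siRNA 1 and 8.30 with siRNA 2, against 10.17 with control. DDX46, the helicase of early spliceosome assembly, was at 9.46 with siRNA 1 and 7.69 with siRNA 2, against 9.44 with control. HOXD13, a homeobox factor of distal limb patterning, was at 10.32 with siRNA 1 and 8.57 with siRNA 2, against 9.98 with control. In all 3 genes the siRNA 1 array lay within 0.35 of control while the siRNA 2 array lay more than 2-fold below it. The differences of these genes were 1.90, 1.76 and 1.76. ERO1A, the endoplasmic reticulum oxidase that feeds disulfide bonds to protein disulfide isomerase, was at 8.73 with siRNA 1 and 7.09 with siRNA 2, against 8.97 with control. TMED5, a p24 cargo receptor between the endoplasmic reticulum and the Golgi, was at 12.26 with siRNA 1 and 10.68 with siRNA 2, against 12.07 with control, and had the largest positive difference of the brightest bin (1.58). VPS36, a subunit of the ESCRT-II sorting complex, was at 10.31 with siRNA 1 and 8.89 with siRNA 2, against 10.27 with control. These 3 genes of membrane traffic and protein folding again had siRNA 1 beside control and siRNA 2 alone at the low end. The other 6 were MDFIC (1.55), RFK, riboflavin kinase (1.52), XK, the partner of the Kell antigen (1.52), ELMOD1 (1.49), ETFRF1 (1.49) and FAM3C, a secreted protein (1.43). The other probe of RFK gave 0.65.

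Several of the higher genes had a second probe with the same reading. FAM3C gave 1.43 and 1.61 at its probes. MBNL1, a splicing regulator of the muscleblind family, was at 10.04 with siRNA 1 and 8.71 with siRNA 2, against 9.92 with control, and its other probe gave 1.32 beside 1.33. TMED7, a second p24 receptor, was at 11.07 with siRNA 1 and 9.94 with siRNA 2, against 11.15 with control, and gave 1.14 and 1.33. In both genes control and siRNA 1 were close and siRNA 2 was low. ANKRD29, KITLG (the ligand of the KIT receptor), NEK7 (a mitotic kinase and partner of NLRP3), SNAI2 (a repressor of epithelial genes) and STX6 (a SNARE of the trans-Golgi) were the other 5 of the 8 genes with the largest differences held by every probe, with differences of 1.35, 1.23, 1.30, 1.09 and 1.18 at the brightest probe. In the brightest bin, LY6E (1.25), DBNDD2 (1.17), the copper chaperone SCO1 (1.12) and the translocon-associated TRAM1 (1.07) followed TMED5.

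**Figure D3:**
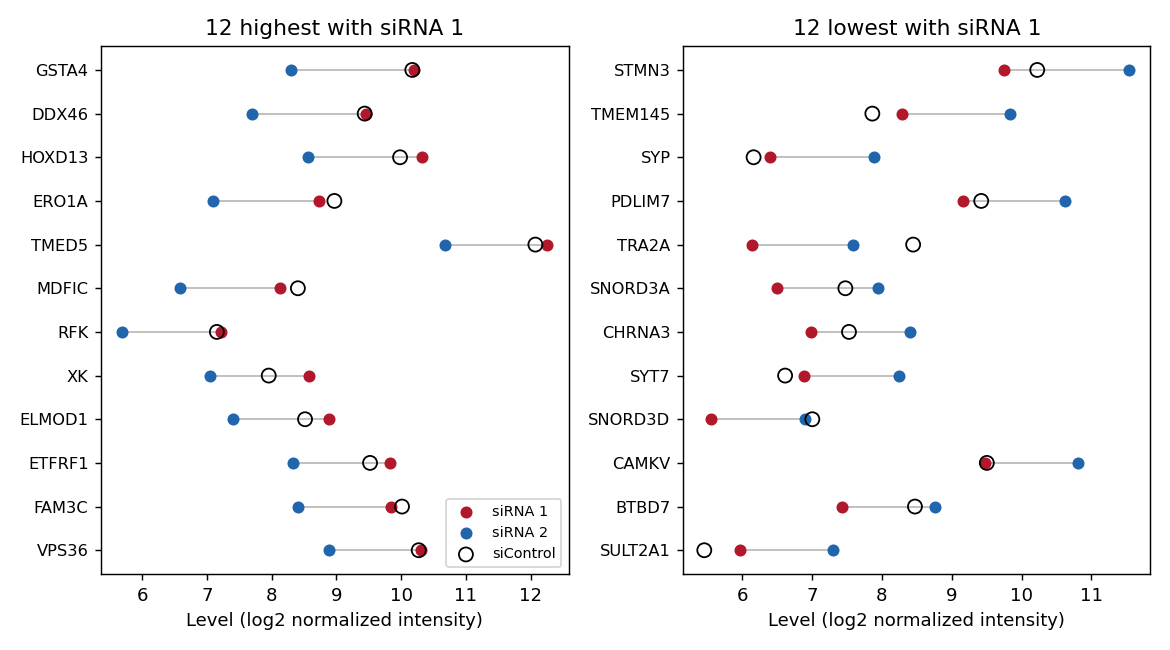
Levels (log2 normalized intensity, x axis) of the 12 genes highest and the 12 genes lowest with siRNA 1 relative to siRNA 2, 1 row a gene, with red points for siRNA 1, blue points for siRNA 2 and open circles for control. In the left panel the blue point is the low one in every row; in the right panel TRA2A and SNORD3D have the control above siRNA 2, and CAMKV has it on siRNA 1.

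The 12 genes with the largest negative difference were less uniform against control. STMN3, a stathmin that destabilizes microtubules and is known from neurons, was at 9.75 with siRNA 1 and 11.54 with siRNA 2, against 10.23 with control. SYP, synaptophysin of the synaptic vesicle membrane, was at 6.40 with siRNA 1 and 7.89 with siRNA 2, against 6.16 with control. SYT7, a calcium sensor of vesicle fusion, was at 6.88 with siRNA 1 and 8.24 with siRNA 2, against 6.61 with control. In these 3 genes siRNA 2 alone was high, and the differences were -1.79, -1.49 and -1.36. CAMKV, a kinase-like protein of synapses, was at 9.47 with siRNA 1 and 10.81 with siRNA 2, against 9.50 with control, so that siRNA 1 and control nearly coincided. TMEM145 (-1.54), PDLIM7 (-1.46), a PDZ and LIM domain protein of the actin cytoskeleton, CHRNA3 (-1.41), a nicotinic acetylcholine receptor subunit, and SULT2A1 (-1.33), a steroid sulfotransferase, also had siRNA 2 as the highest of the 3 arrays.

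In the other 4 lowest genes the siRNA 1 array was below control and farther from it than the siRNA 2 array. It was also below control in other genes, such as STMN3 (-0.48) and CHRNA3 (-0.54), but there siRNA 2 lay farther from control. TRA2A, an activator of splicing, was at 6.14 with siRNA 1 and 7.59 with siRNA 2, against 8.45 with control. Both siRNA arrays were below control, siRNA 1 by more. SNORD3A, a copy of the U3 RNA of rRNA processing, was at 6.50 with siRNA 1 and 7.95 with siRNA 2, against 7.48 with control, and SNORD3D, another copy, was at 5.56 with siRNA 1 and 6.90 with siRNA 2, against 7.0 with control. The U3 copies are nearly identical, so the probes may not tell them apart. BTBD7 was at 7.43 with siRNA 1 and 8.77 with siRNA 2, against 8.47 with control, but its other probe gave -0.09 beside -1.33. Among genes with 2 or more probes, CTNNB1, the adhesion and Wnt signalling protein beta-catenin, was at 8.05 with siRNA 1 and 9.30 with siRNA 2, against 10.12 with control. Its probes gave -1.25 and -1.11, and like TRA2A it was below control on both siRNA arrays. CHRNA3 gave -1.41 and -1.58 over its probes and PDLIM7 -1.46 and -0.96. The others of the 8 genes with the largest negative differences held by every probe were RN7SK, SAPCD2 (-0.88), the retinaldehyde dehydrogenase ALDH1A1 (-0.83), HSD11B1L (-0.81) and the ganglioside synthase ST3GAL5 (-1.07). In the brightest bin the lowest were CREB1, CMSS1, MRGBP (-0.80), the protease inhibitor SERPINE2 (-0.79) and MLLT11 (-0.71). For the first pair the probes disagreed: CREB1, the cyclic AMP response factor, gave -0.91 at its brightest probe but from -0.42 to 0.70 at the other 4, and CMSS1 gave -0.87 and -0.12.

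Genes known from neurons mostly had negative differences, 15 of 18 synaptic vesicle and granule proteins and 9 of 13 genes of the neuronal cytoskeleton. Among all 10932 detected genes, 6003 had a negative difference. Synaptic vesicle proteins store and release transmitter, the neuronal cytoskeleton holds neurofilaments, stathmins and neuronal tubulin, and 293T cells are known to transcribe a number of such genes. Of 18 detected synaptic vesicle and granule proteins, 0 were higher with siRNA 1 by over 1.5-fold and 7 were lower (38.9%), with a median difference of -0.47. Over all genes 4.49% were lower. The 18 genes were dim, with a median level of 7.03 against 8.95 over all genes, and dim genes were more often lower. The median difference of the 18 genes from control was 0.15 with siRNA 1 and 0.70 with siRNA 2. Besides SYP and SYT7 the named members were SYNGR3, a vesicle protein, at 5.63 with siRNA 1 and 6.69 with siRNA 2 and not detected on the control array, and BSN, the active-zone scaffold bassoon, at 7.38 with siRNA 1 and 8.44 with siRNA 2, against 7.37 with control. SYN1, synapsin 1, which tethers vesicles, was at 6.17 with siRNA 1 and 7.11 with siRNA 2, against 6.28 with control. In BSN and SYN1 siRNA 1 and control lay together and siRNA 2 was the high array. Of 13 detected genes of the neuronal cytoskeleton 2 were higher and 5 lower, with a median of -0.41. That median was -0.25 with no background correction, with an offset of 50 and in the authors' deposited intensities. TUBB3, neuronal beta-tubulin, was at 6.76 with siRNA 1 and 8.04 with siRNA 2, against 6.84 with control. DPYSL3 (-0.74) and the filament protein INA (-0.72) were also lower. The family was not uniform: NEFM, the medium neurofilament, was at 10.31 with siRNA 1 and 9.65 with siRNA 2, against 9.49 with control, so here siRNA 1 was the high array. Both families stayed below the median of all genes under every setting that gave them a value.

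The 250 bases upstream of the start site of a few of these genes are shown, from RefSeq on GRCh38.p14. SYN1 was picked with its values in view, and SYNGR3 and BSN are not shown. A part of REST in the differences was not tested. STMN3, SYP, SYN1 and TUBB3 matched the table and SYT7 is named only. The motif searched was TTCAGCACC, the first part of the element bound by the repressor REST, on both strands, and it is set in capitals where found.
STMN3, chr20:63652767-63653016, minus strand: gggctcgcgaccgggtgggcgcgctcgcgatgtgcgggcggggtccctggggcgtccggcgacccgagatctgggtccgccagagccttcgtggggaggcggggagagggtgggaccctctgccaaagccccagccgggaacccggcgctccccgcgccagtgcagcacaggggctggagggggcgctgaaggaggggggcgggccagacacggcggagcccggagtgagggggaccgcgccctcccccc
SYP, chrX:49200194-49200443, minus strand: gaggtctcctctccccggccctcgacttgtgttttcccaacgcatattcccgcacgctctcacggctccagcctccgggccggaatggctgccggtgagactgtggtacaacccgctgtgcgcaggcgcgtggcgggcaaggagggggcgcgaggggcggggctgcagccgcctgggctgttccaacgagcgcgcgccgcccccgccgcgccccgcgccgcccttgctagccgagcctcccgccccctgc
SYN1, chrX:47619858-47620107, minus strand: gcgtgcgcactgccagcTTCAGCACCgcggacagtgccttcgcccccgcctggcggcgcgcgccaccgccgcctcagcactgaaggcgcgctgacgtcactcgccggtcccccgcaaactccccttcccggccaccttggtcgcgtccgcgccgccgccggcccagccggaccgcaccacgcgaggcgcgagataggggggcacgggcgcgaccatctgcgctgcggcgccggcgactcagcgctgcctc
TUBB3, chr16:89921675-89921924, plus strand: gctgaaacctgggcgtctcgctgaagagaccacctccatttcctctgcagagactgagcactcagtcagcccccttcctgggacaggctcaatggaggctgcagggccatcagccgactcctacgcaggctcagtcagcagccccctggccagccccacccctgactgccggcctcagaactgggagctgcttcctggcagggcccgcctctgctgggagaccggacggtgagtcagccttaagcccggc

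The motif was found in the SYN1 window and not in those of STMN3, SYP and TUBB3. It occurred in 82 of 27305 promoters in the table (0.300%) and in 19 of 8921 promoters of detected genes (0.213%). A match describes letters and not a bound site. REST itself was at 6.36 with siRNA 1 and 6.31 with siRNA 2, against 6.57 with control, a difference of 0.05 with all 3 arrays close together. Of 12 detected genes in a list of REST and its corepressors, which was chosen after the data were seen, 0 were higher and 2 lower. RCOR2, a corepressor, was at 5.47 with siRNA 1 and 6.65 with siRNA 2, against 6.17 with control, and PHF21B differed by -0.85.

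Of 35 detected axon guidance genes 2 were higher and 7 lower (20%, against 4.49% of all genes), with a median of -0.15. The median level was 7.88 here, 8.03 in the interferon genes and 6.58 in the collagens below, against 8.95 over all genes. Dim genes were more often lower. The ligand EFNA1, an ephrin, was at 8.09 with siRNA 1 and 9.33 with siRNA 2, against 7.95 with control, and its other probe gave -0.80. The ligand SEMA6C (-0.99) and the receptor PLXNA3 (-0.83) were lower as well. NRP1, a semaphorin and VEGF receptor, was higher at its brightest probe (0.89) but not at its other one (0.06). Of 7 detected Notch ligands and receptors, a list chosen after the data were seen, 0 were higher and 3 lower, with a median of -0.57. The ligands JAG2 (8.30 with siRNA 1 and 9.24 with siRNA 2, against 8.26 with control) and DLL1 (8.85 with siRNA 1 and 9.66 with siRNA 2, against 8.78 with control) and the receptor NOTCH3 (8.79 with siRNA 1 and 9.54 with siRNA 2, against 8.98 with control) made up the 3. All had siRNA 2 as the high array. Of 25 detected interferon-stimulated and RNA sensing genes 0 were higher and 4 lower (16%), with a median of -0.24. These were the antiviral membrane proteins IFITM1 (8.63 with siRNA 1 and 9.30 with siRNA 2, against 8.56 with control), IFITM2 (-0.65) and IFITM3 (-0.64) and the factor IRF1 (-0.60). Unlike IFITM1, the last 3 had siRNA 1 below control and siRNA 2 above it. Their differences from control were -0.39 and 0.27 for IFITM2, -0.44 and 0.19 for IFITM3, and -0.30 and 0.30 for IRF1, siRNA 1 first. The IFITM genes are close in sequence, so probes may read more than 1 of them. Of 17 detected collagens 0 were higher and 3 lower, COL18A1 (-0.86), COL7A1 (-0.86) and COL26A1 (-0.77), with a median of -0.22. That median no longer differed from all genes (-0.01) when dim genes were kept.

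C2H2 zinc finger genes, many of which encode DNA-binding repressors and many of which lie in large clusters on chromosome 19, were a large family with a shift. Of 346 detected ZNF genes 10 were higher with siRNA 1 and 61 lower (17.6%), with a median difference of -0.19. ZNF177 was at 7.82 with siRNA 1 and 9.05 with siRNA 2, against 8.20 with control. ZNF420 was at 5.96 with siRNA 1 and 7.11 with siRNA 2, against 6.01 with control. ZNF404 was at 5.91 with siRNA 1 and 7.0 with siRNA 2, against 6.03 with control. In each of the 3 siRNA 1 was the lowest array and siRNA 2 the highest. These 3 lie on chromosome 19 in the RefSeq table, and ZNF467 (-1.14) lies elsewhere. A split by chromosome, chosen after the data were seen, put 47 of the 61 lower genes there. Of 150 ZNF genes of chromosome 19, 2 were higher and 47 lower (31.3%), with a median of -0.39. Of 196 ZNF genes on other chromosomes, 8 were higher and 14 lower (7.14%). The remaining genes of chromosome 19 also had few higher and many lower, 3 and 52 of 584 (8.90%), against 492 and 378 of 10002 genes that were neither on chromosome 19 nor ZNF (3.78% lower). Genes lower there included ARID3A (-1.29), a DNA-binding protein, IL27RA (-1.16), a cytokine receptor, and PLIN3 (-1.11), a lipid droplet protein. Chromosome 19 as a whole had 13.5% of its 734 genes lower, and the other chromosomes between 1.29% (chromosome 18) and 6.44% (chromosome 22).

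**Figure D4:**
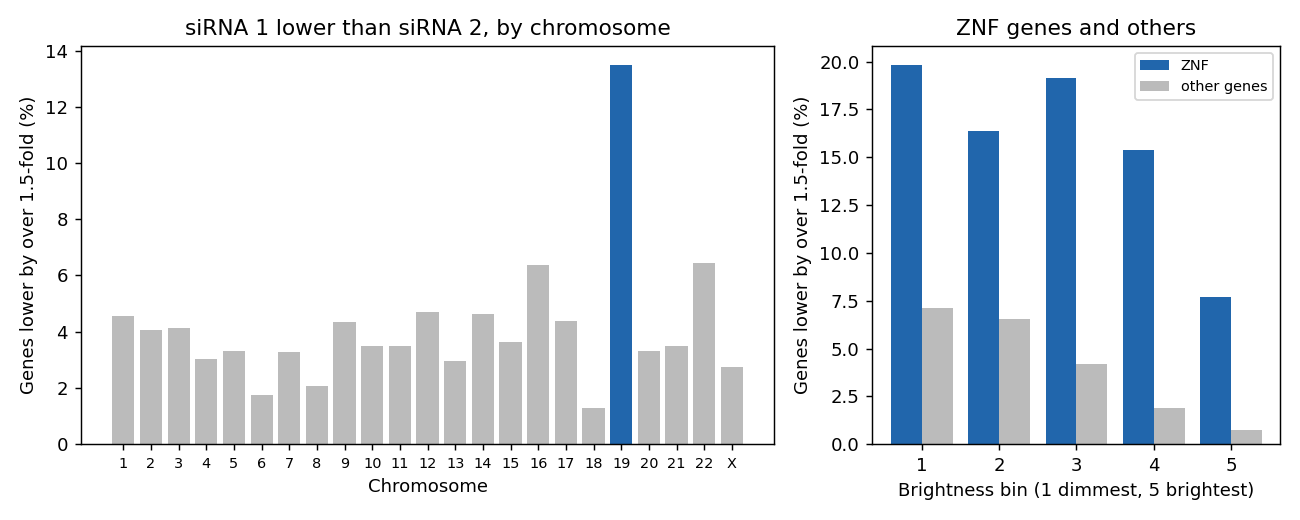
The left panel gives the percent of detected genes of each chromosome that were lower with siRNA 1 than with siRNA 2 by over 1.5-fold, 13.5% on chromosome 19 (blue) and at most 6.44% elsewhere. The right panel gives the same percent for ZNF genes and for other genes in 5 brightness bins from the dimmest (1) to the brightest (5), 19.8% against 7.15% in the dimmest and 7.69% against 0.736% in the brightest.

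ZNF genes were dim, and dim genes were more often lower, so the shares were set out by brightness. In the dimmest bin 19.8% of ZNF genes and 7.15% of other genes were lower, in the middle bin 19.1% and 4.20%, and in the brightest bin, with 13 ZNF genes, 7.69% and 0.736%. The share was larger in ZNF genes in each bin. The median difference of the ZNF genes of chromosome 19 from control was -0.07 with siRNA 1 and 0.28 with siRNA 2. Fewer ZNF genes were lower by over 1.5-fold with no background correction (30), with an offset of 50 (33) and in the authors' deposited intensities (27). In the same settings the lower ZNF genes of chromosome 19 numbered 24, 26 and 21, and the lower other genes of that chromosome 25, 30 and 25. With equal array medians the counts of the family turned to 52 higher and 6 lower, and those of its chromosome 19 members to 10 and 5, but relative to all genes the median stayed lower, at -0.14 for ZNF genes and -0.35 for those of chromosome 19.

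Among short noncoding RNAs, RN7SK, the RNA that holds the elongation factor P-TEFb inactive, was at 7.03 with siRNA 1 and 8.27 with siRNA 2, against 7.85 with control, and its probes gave -1.25 and -0.92. RNU6-1, a copy of the U6 spliceosomal RNA, was at 8.46 with siRNA 1 and 9.63 with siRNA 2, against 9.39 with control. In both, siRNA 1 lay well below the other arrays. Of 12 detected ribosomal, spliceosomal, Y and 7S RNAs 0 were higher and 2 lower, with a median of -0.26, and their median difference from control was -0.74 with siRNA 1 and -0.10 with siRNA 2. Many of these RNAs have near-identical copies, so the gene behind a probe is uncertain. Of 94 detected small nucleolar and Cajal body RNAs 1 was higher and 5 lower, near the 4.49% of all genes, with a median of -0.20. This median was that of all genes when dim probes were kept. In the family of microRNA genes, listed by symbol, 21 of 578 on the array were detected, and their median level lay in the dimmest bin. Among these 21, 1 was higher and 2 lower, with a median of -0.01. Both lower ones, MIR99AHG (-0.71) and MIR1915HG (-0.65), are long host transcripts of microRNAs and not short RNAs. The median difference of the 21 from control was 0.03 with siRNA 1 and 0.05 with siRNA 2. Of 16 detected snoRNA host transcripts 0 were higher and 0 lower, with a median of -0.24, and 14 had a negative difference, as had 6003 of all 10932 genes.

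**Figure D5:**
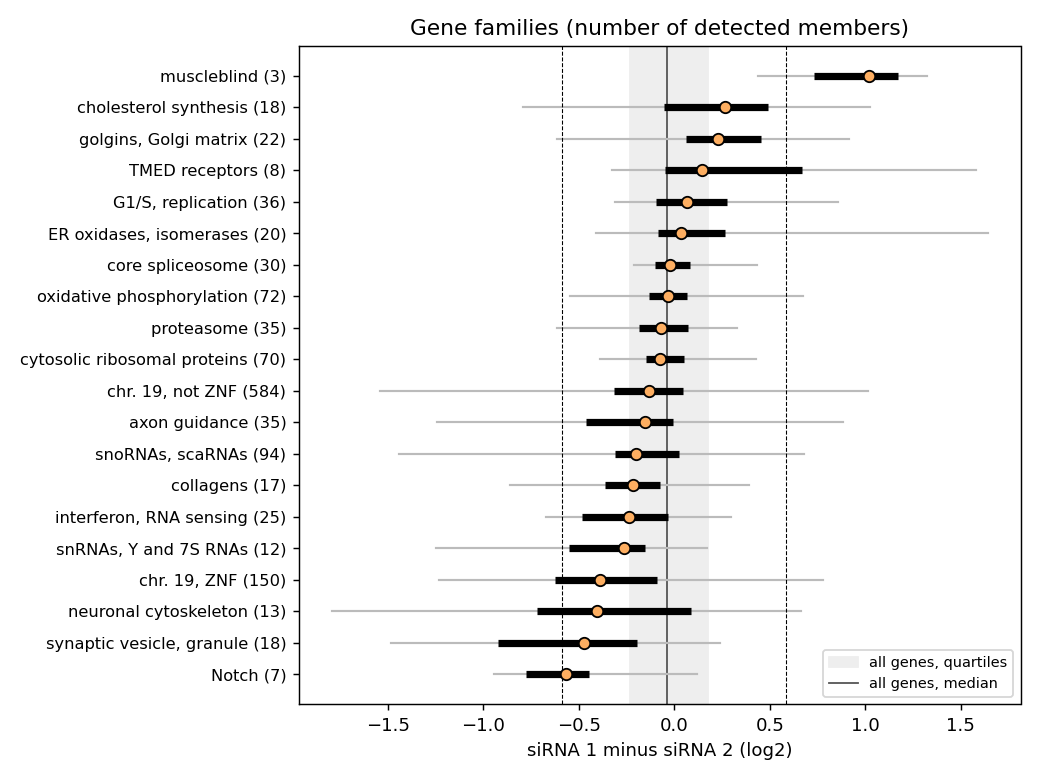
Each row is a gene family with its number of detected members, the orange point its median difference (siRNA 1 minus siRNA 2, log2, x axis), the thick bar the span between its quartiles and the thin line its range. The grey band is the span between the quartiles of all 10932 genes, the grey line their median (-0.04) and the dashed lines 1.5-fold. Notch genes (-0.57), synaptic vesicle proteins (-0.47) and neuronal cytoskeleton (-0.41) lie at the low end, muscleblind proteins (1.02) at the high end, and ribosomal proteins and oxidative phosphorylation at the median of all genes. The Notch, muscleblind, TMED and chromosome 19 lists were chosen after the data were seen. The muscleblind median, over 3 genes, is the value of MBNL3, whose other probes gave 0.11 and 0.20.

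Most families on the siRNA 1 side had smaller medians and few members past 1.5-fold. Of 22 detected golgins and Golgi matrix proteins, which tether vesicles, 3 were higher and 1 lower, 18 had a positive difference (4914 of all 10932 genes had), and the median was 0.23. GCC2, a trans-Golgi golgin, was at 7.58 with siRNA 1 and 6.67 with siRNA 2, against 7.63 with control, but its other probe gave 0.36 beside 0.91. BLZF1, a golgin partner, went the other way (-0.61 and -0.53). Of 18 detected genes of cholesterol synthesis 1 was higher and 1 lower, with a median of 0.26. The lower gene was TM7SF2 (-0.79), at 7.32 with siRNA 1 and 8.11 with siRNA 2, against 7.65 with control. The sterol oxidase MSMO1 gave 1.02 at its brightest probe and -0.02 and 1.12 at its others, so 2 of its 3 probes passed 1.5-fold. INSIG1, which retains the sterol sensor in the endoplasmic reticulum, was at 12.53 with siRNA 1 and 11.99 with siRNA 2, against 12.23 with control, and gave 0.54 and 1.01. Of 20 detected endoplasmic reticulum oxidases and disulfide isomerases 3 were higher and 0 lower with a median of 0.04, so ERO1A, DNAJC10 (0.81, other probe 0.79) and TMX1 (0.59) were not joined by the rest. Of 23 endoplasmic reticulum chaperones 0 were higher and 1 lower. Of 8 detected p24 receptors, a list chosen after the data were seen, TMED5 and TMED7 alone passed 1.5-fold, and TMED2 (0.15), TMED9 (0.14) and TMED3 (-0.11) did not. Of the 3 muscleblind proteins, chosen likewise, MBNL1 and MBNL3 (9.33 with siRNA 1 and 8.31 with siRNA 2, against 9.17 with control) were higher, though the other probes of MBNL3 gave 0.11 and 0.20. MBNL2 gave 0.44 and -0.07.

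Short lists of higher genes came from the G1/S, glycolysis and hypoxia, and heat shock families, but not from G2/M genes. Of 36 detected G1/S and DNA replication genes 5 were higher (13.9%) and 0 lower, with a median of 0.07. Over all genes 4.62% were higher and 4.49% lower. GINS2, a subunit of the replicative helicase, was at 12.11 with siRNA 1 and 11.25 with siRNA 2, against 12.20 with control. PRIM1, a primase subunit, was at 10.45 with siRNA 1 and 9.65 with siRNA 2, against 10.48 with control, and its other probe gave 0.84. The siRNA 2 array was the low one in both. RFC2 (0.78, other probe 0.22) and CCNE1, cyclin E1 (0.77), were among the 5. Of 30 detected G2/M genes 0 were higher and 1 was lower, KIF20A (-0.69). Of 28 genes of glycolysis and hypoxia 4 were higher (14.3%) and 0 lower, with a median of 0.09. They were SLC2A3 (0.80), a glucose transporter, ANKRD37 (0.72), P4HA1 (0.62) and BNIP3 (0.61). Of 56 heat shock proteins and J-domain co-chaperones 6 were higher (10.7%) and 1 lower, with a median of 0.02. HSPA6 was at 6.74 with siRNA 1 and 5.62 with siRNA 2, against 6.60 with control, and HSPA1A was at 7.94 with siRNA 1 and 6.87 with siRNA 2, against 7.66 with control. Both have near-identical copies, and the constitutive HSPA8 was level (14.09 with siRNA 1 and 14.08 with siRNA 2, against 14.13 with control). HSPA7 was the 1 lower gene, at 5.30 with siRNA 1 and 5.92 with siRNA 2, against 5.83 with control. HSPA14 also had a negative difference (-0.52), within 1.5-fold. Of 44 RAB GTPases 5 were higher (11.4%) and 1 lower, and of 39 ubiquitin-specific proteases 4 were higher (10.3%) and 0 lower. The higher ones came to 1 RAB gene and 2 proteases with no background correction, 1 and 3 with an offset of 50, and 1 and 1 in the authors' deposited intensities.

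YAP1, the coactivator of TEAD factors, was at 10.23 with siRNA 1 and 8.95 with siRNA 2, against 9.90 with control, whereas of 18 detected YAP and TEAD genes it was the 1 that was higher and the median was -0.14. BMPR2, a type II BMP receptor, was at 9.15 with siRNA 1 and 8.22 with siRNA 2, against 9.36 with control, with probes at 0.93 and 1.03. SKI, a repressor of SMAD signalling, was lower (-0.84), and over the 21 TGF-beta and BMP genes the median was 0.14. LEF1, a partner of beta-catenin in the nucleus, was at 11.15 with siRNA 1 and 10.16 with siRNA 2, against 11.01 with control, and gave 0.99 and 1.09, opposite in sign to CTNNB1. Of 12 detected genes in the list of beta-catenin, its partners and TCF factors, which was chosen after the data were seen, 1 was higher and 2 lower, 10 had a negative difference, and the median was -0.27. MYC was at 12.45 with siRNA 1 and 11.80 with siRNA 2, against 11.70 with control, and its other probe gave 0.35. Of 21 detected immediate early genes it was the 1 that was higher, and 3 were lower, FOSB (-0.97), IER2 (-0.64) and JUND (-0.61). HOXD13 was the 1 of 22 detected HOX genes past 1.5-fold. KIF3B, a motor of anterograde transport, gave 1.07 and 1.05, and of 28 detected kinesins 2 were higher and 1 lower.

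The large housekeeping complexes were level between the siRNAs. Of 70 detected cytosolic ribosomal protein genes 0 were higher and 0 lower, with a median of -0.07 and a range from -0.39 to 0.43. Of 72 genes of oxidative phosphorylation 2 were higher and 0 lower (median -0.03), of 35 proteasome subunits 0 and 2 (median -0.07) and of 75 mitochondrial ribosomal protein genes 1 and 0 (median -0.02). No member passed 1.5-fold among 30 core spliceosome subunits, 24 subunits of the COPI and COPII coats or 28 actin capping and branching proteins. These families hold many bright genes, in which all array pairs had a small spread. Of 37 genes of the integrated stress response 0 were higher and 2 lower. Of 19 p53 targets 2 were higher and 0 lower, PMAIP1 (0.81 and 1.04) and SESN1 (0.65). The median of the p53 targets was -0.11, and 13 had a negative difference, among them BBC3 (-0.47) and CDKN1A (-0.43). Microtubules again split by gene: of 22 tubulins, the broadly expressed TUBB was higher (13.44 with siRNA 1 and 12.69 with siRNA 2, against 13.64 with control), and TUBB3 and TUBA4A (-0.82) were lower.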

How the data were processed

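RNA of 293T cells was measured on 3 Illumina BeadChip arrays, 1 each for siRNA 1, siRNA 2 and control. The authors deposited a non-normalized table with an average signal intensity per probe and a detection p-value, per the file headers, and each detection p-value was tied to the array in the column to its left. They also deposited normalized intensities on a linear scale. The submitters' processing notes list the tool lumi; its version is not given in the sources used here. A further deposited table of the authors' knockdown against control comparison was not used here.

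From the non-normalized intensities, background was estimated from the detection p-values and removed, after which log2 values were quantile normalized, both by the function neqc (limma 3.58.1, R 4.3.3, offset 16). At that offset, differences of dim probes come out wide, and the scaling removes any change common to most transcripts. Of 47323 probes, 30113 had 1 gene symbol in the platform annotation, 8 had several and 17202 were not listed. Of the named probes 30074 had a gene ID in the RefSeq table of GRCh38.p14, which gave chromosomes, and 0 symbols changed. The brightest probe over the 3 arrays stood for a gene. With 1 array a group no test was possible, and precision is limited by the number of arrays. The calculation of calls and list medians was tested on simulated data.

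Named are TARBP2, DICER1, AGO2 and PRKRA, the 12 highest and 12 lowest genes (symbols beginning LOC or of open reading frames skipped), 8 each way with the largest differences held by all of 2 or more probes, 5 each way in the brightest of 5 brightness bins, and up to 4 members of a list. SYN1, NEFM, REST and members named beyond 4 in a list were picked with their values in view. The genes, the 63 lists and the rules were chosen with earlier results of these data known, and 10 more lists were added after seeing the data. Alternatives were 11 other settings of background, scaling, probe choice and filter.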

Additional observations from a re-analysis of the deposited data

How the results depend on the processing

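With 1 array a side, no replicate could be left out, and dim probes near background limit what these arrays can resolve. Genes higher by over 1.5-fold numbered 324 with no background correction, 2680 with equal array medians, 325 in the authors' deposited intensities and 215 over genes brighter than the median, against 505 as reported; genes lower numbered 256, 69, 245 and 101 in the same settings and 289 with an offset of 50, against 491. By over 2-fold, genes higher numbered 46 with no background correction, 51 with an offset of 50, 494 with equal array medians, 42 in the authors' intensities and 36 over the brighter genes, against 85, and genes lower 19, 20, 10, 17 and 8, against 53. TRIM13 was lower as reported (-0.70) and turned higher with equal array medians (0.89). With the mean of its probes its difference turned positive but lay within 1.5-fold (0.032), since its other probes gave 0.31 and 0.49. Over the other named genes and settings, 233 values of called genes came within 1.5-fold and 141 values of uncalled genes moved by more than the SD over genes, 140 of them with equal array medians; 3690 did neither. Axon guidance genes lower numbered 4 and interferon genes lower 2 with no background correction, with an offset of 50 and in the authors' intensities, against 7 and 4. In these 3 settings small nucleolar and Cajal body RNAs lower numbered 2, against 5, integrated stress response genes lower 0, against 2, RNA interference and beta-catenin genes lower 1 each, against 2 each, and oxidative phosphorylation and TGF-beta genes higher 1 each, against 2 each. The median of small nucleolar and Cajal body RNAs was -0.12, -0.13 and -0.11, against -0.20, and that of collagens was -0.14, -0.15 and -0.13, against -0.22. No paired analysis was possible because each group has 1 array.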
